A study of Homo sapiens with 6 samples.

Results

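Polycomb repressive complex 2 (PRC2) was read out through 10 genes, chosen by name among the 21494 genes of the count table: the catalytic subunits EZH2 and EZH1, the core subunits EED and SUZ12, the histone-binding subunits RBBP4 and RBBP7, and the accessory subunits JARID2, AEBP2, MTF2 and PHF19. All 10 were in the table and all 10 passed the filter on low counts. RNA-seq was performed on 6 samples that the labels name as G361, a human melanoma cell line. In 3 of them (Control sh, genotype WT in the labels) the cells carried a control shRNA, and in the other 3 (VprBP sh, genotype DCAF1 Knockdown) an shRNA against the coding region of DCAF1, the gene for VprBP. The VprBP shRNA was delivered by lentivirus, and infected cells were selected with puromycin. VprBP was targeted with 1 shRNA sequence, and whether replicates are separate infections or cultures is not stated in the sources used here, so p-values measure the spread between these samples, which may be technical.

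PRC2 methylates lysine 27 of histone H3, a mark of silenced genes. Its catalytic subunit, EZH2 or its paralog EZH1, is active only in a complex with EED, which binds the methyl mark and stimulates the enzyme, and SUZ12, which holds the complex together, while RBBP4 or RBBP7 bind histones. Accessory subunits define alternative forms of the complex, one form carrying a Polycomb-like protein (PHF1, MTF2 or PHF19) and the other carrying JARID2 and AEBP2, and they help to bring it to chromatin at CpG-rich promoters. EZH2 is typical of dividing cells and EZH1 of resting ones, and EZH2 is often abundant in melanoma.

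VprBP sh samples had more EZH2 and EED mRNA and less SUZ12, MTF2 and AEBP2 mRNA than Control sh samples. EZH2 was 3.68-fold higher, MTF2 was 4.24-fold lower and SUZ12 was 2.85-fold lower, so the genes of the complex did not move in 1 direction. The paralog EZH1 differed by less than 2-fold, as did RBBP4, RBBP7, JARID2 and PHF19. Calls required both a fold change over 2 and an adjusted p-value (Benjamini-Hochberg) under 0.05 from the quasi-likelihood test of edgeR. By this rule 2 of the 10 genes were called higher, 3 were called lower and 5 were not called. Changes of this size were common: 46.4% of the 16756 genes tested were called, 24.5% higher and 22% lower in VprBP sh. The share of PRC2 genes called, 50%, is close to this background. The median log2 fold change of the 10 genes was -0.15, against 0.08 over all genes tested, and the median absolute log2 fold change was 0.89 against 0.92.

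Several facts of the whole series stand beside each result below. Total counts were 18195926 to 26883925 per sample. DCAF1 itself gave counts of 688, 893 and 884 in the Control sh samples, against 681, 488 and 628 in the VprBP sh samples, a log2 fold change of -0.58 (SE 0.17, adjusted p = 0.0125 in edgeR) that did not reach 2-fold. The source field of the labels reads LD611, although G361 is given as the line. Of the 10 melanocyte-lineage markers listed, 5 were in the table. Their summed normalized counts were 429 to 493 over Control sh and 1032 to 1102 over VprBP sh. Most of that sum was MC1R (means 254 and 779, called higher) and MITF (172 and 237, not called). MLANA had 1 to 5 counts in any sample, and PAX3, TYR, DCT, SOX10 and S100B were not in the table. The summed keratinocyte markers lay at 83455 to 91900 over Control sh and at 755 to 880 over VprBP sh, and the summed urothelial markers at 93810 to 105210 and at 25088 to 28539. The urothelial sum rests on KRT5 and KRT7 and its members moved both ways, 2 of 6 tested being called higher (GATA3 at 9.02 and PPARG at 1.39 on the log2 scale) and 3 lower. Endothelial markers summed to 697 to 723 and 29.0 to 40.6, fibroblast markers to 755 to 803 and 457 to 602, and leukocyte markers to 1289 to 1872 and 135 to 479. In both groups, replicate 1 stood apart from replicates 2 and 3, which resembled each other. Mitochondrial genes took 1.96% to 1.98% of counts in the Control sh group, against 4.10% to 4.48% in the VprBP sh group. Samples of one group correlated with each other at 0.985 to 0.994 across genes, and samples of different groups at 0.652 to 0.660. KRT14, a basal keratinocyte keratin, had a mean of 79034 normalized counts over the Control sh samples, against 4.67 over the VprBP sh samples. The marker levels, the mitochondrial share and these correlations run with the 2 groups. Whether the groups are different cells as well as differing in the shRNA was not tested, and the design cannot tell this apart from the knockdown in any fold change given for a PRC2 gene. Likewise, in RNA from whole cultures, fewer cells of a type and less RNA per cell cannot be told apart.

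Promoter sequence was taken for the core subunits called in opposite directions, EZH2 and EED higher and SUZ12 lower, to set their starts side by side. All 10 genes matched RefSeq on GRCh38.p14, and the 250 bases before each start were searched on both strands for 3 spellings of an E2F site (TTTCCCGC, TTTGGCGC and TTTCGCGC) and for the CCAAT box, CCAAT, bound by NF-Y. Capitals mark the matches, none of which overlapped another. The windows are chr7:148884292-148884541 on the minus strand for EZH2, chr11:86244503-86244752 on the plus strand for EED and chr17:31936757-31937006 on the plus strand for SUZ12.
EZH2: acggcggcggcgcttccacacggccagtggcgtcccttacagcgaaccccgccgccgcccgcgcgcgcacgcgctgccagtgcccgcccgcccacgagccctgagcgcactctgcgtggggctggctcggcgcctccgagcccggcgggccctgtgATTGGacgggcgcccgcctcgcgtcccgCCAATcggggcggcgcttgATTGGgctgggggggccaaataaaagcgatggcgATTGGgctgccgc
EED: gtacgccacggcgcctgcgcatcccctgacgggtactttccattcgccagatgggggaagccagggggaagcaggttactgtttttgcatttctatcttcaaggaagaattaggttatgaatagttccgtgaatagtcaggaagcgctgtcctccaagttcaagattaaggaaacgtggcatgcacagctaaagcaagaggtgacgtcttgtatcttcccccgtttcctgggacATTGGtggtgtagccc
SUZ12: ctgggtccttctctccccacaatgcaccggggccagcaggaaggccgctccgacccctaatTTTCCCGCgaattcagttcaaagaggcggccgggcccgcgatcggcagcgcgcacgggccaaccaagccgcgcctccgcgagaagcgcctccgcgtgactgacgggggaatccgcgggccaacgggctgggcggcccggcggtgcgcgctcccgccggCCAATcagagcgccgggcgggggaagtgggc

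The EZH2 window held 4 CCAAT matches, that of EED 1, and that of SUZ12 1 CCAAT match and 1 E2F match starting 189 bases before the start. Of 27305 RefSeq promoters of this length, 33.0% held a CCAAT match and 2.38% an E2F match of any of the 3 spellings. Among the 10 genes, 7 held a CCAAT match and 1, SUZ12, an E2F match. The genes with no CCAAT match were EZH1, AEBP2 and MTF2, each with a negative log2 fold change, and the genes with a match had log2 fold changes of both signs. The windows of AEBP2 (chr12:19440349-19440598) and PHF19 (chr9:120868912-120869161) lie inside the gene spans given below. Other starts of these genes were not searched. GC content was 75.6% for EZH2, 72.8% for SUZ12 and 51.2% for EED, against a median of 58.0% over all promoters, and the numbers of CpG were 38, 34 and 11, against a median of 11. A match describes the letters in this window only.

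The catalytic pair were examined first. EZH2 (ENSG00000106462.12, chromosome 7, 148807257 to 148884321 on the minus strand of hg38) gave counts of 514, 612 and 656 in the Control sh samples, against 2484, 1967 and 2751 in the VprBP sh samples. Every VprBP sh sample lay above every Control sh sample, with a wide gap. Normalized counts, which are counts scaled by upper quartile factors, rose from 628 ± 35.1 to 2309 ± 404 (SD, n = 3), a log2 fold change of 1.88 (SE 0.13, adjusted p = 8.33e-07 in edgeR). Replicate 1 of VprBP sh was the highest, at 2773 normalized counts against 2044 and 2109. Ranked by absolute log2 fold change, EZH2 was number 4461 of the 16756 genes tested.

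EZH1 (ENSG00000108799.13, chromosome 17, 42700275 to 42745049, minus strand), the paralog with weaker methyltransferase activity, gave counts of 324, 339 and 484 in the Control sh samples, against 279, 297 and 405 in the VprBP sh samples. After normalization the VprBP sh samples, at 309 to 312, lay below the lowest Control sh sample, at 369. The means were 401 ± 50.3 and 310 ± 1.47 (SD, n = 3), and the log2 fold change of -0.37 (SE 0.12, adjusted p = 0.0200 in edgeR) did not reach 2-fold. Control sh replicate 3 was the highest for EZH1, at 459 normalized counts, against 376 and 369 in replicates 1 and 2. In the main fit the catalytic genes thus differed between the groups in opposite directions. For EZH2 this was a called change, and for EZH1 a smaller difference that was not called.

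EED (ENSG00000074266.22, chromosome 11, 86244753 to 86278813, plus strand), the subunit that reads trimethylated H3K27, gave counts of 248, 336 and 350 in the Control sh samples, against 628, 636 and 830 in the VprBP sh samples. The groups did not overlap, and normalized counts rose from 328 ± 39.0 to 666 ± 32.8 (SD, n = 3). The log2 fold change of 1.02 (SE 0.12, adjusted p = 3.31e-05 in edgeR) lay just past the 2-fold limit. It fell to 0.92 with TMM factors, 0.90 in DESeq2, 1.00 with no filter on low counts, 0.93 without Control sh replicate 1 and 0.98 without VprBP sh replicate 1, each under the limit before rounding, and a test against 2-fold gave an adjusted p of 0.448 in edgeR. The higher level held in all of these, and the call did not.

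SUZ12 (ENSG00000178691.11, chromosome 17, 31937007 to 32001038, plus strand), the scaffold that joins the other core subunits, gave counts of 2749, 3457 and 4063 in the Control sh samples, against 1237, 1207 and 1503 in the VprBP sh samples. All 3 VprBP sh samples lay far below the Control sh samples. Normalized counts fell from 3599 ± 360 to 1262 ± 115 (SD, n = 3), a log2 fold change of -1.51 (SE 0.10, adjusted p = 8.79e-07 in edgeR). SUZ12 and EED therefore changed in opposite directions although both are needed for a working core. The pseudogene SUZ12P1, which shares sequence with SUZ12 and could divide reads with it, ranged from 95 to 172 counts over Control sh and from 114 to 187 over VprBP sh, with a log2 fold change of -0.05 that was not called.

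RBBP4 (ENSG00000162521.19, chromosome 1, 32651142 to 32686211, plus strand), a histone chaperone shared with other chromatin complexes, gave counts of 3434, 3842 and 4397 in the Control sh samples, against 7522, 5994 and 8276 in the VprBP sh samples. The VprBP sh samples were all higher. Normalized counts were 4108 ± 111 and 6990 ± 1221 (SD, n = 3), with a log2 fold change of 0.77 (SE 0.12, adjusted p = 0.000221 in edgeR), under 2-fold. RBBP7 (ENSG00000102054.18, chromosome X, 16839283 to 16870362, minus strand), its close paralog, gave counts of 4948, 6111 and 7305 in the Control sh samples, against 5479, 5567 and 7619 in the VprBP sh samples. It was the only PRC2 gene whose normalized counts overlapped between groups, and its log2 fold change of -0.12 (SE 0.09, adjusted p = 0.238 in edgeR) did not pass the test. In GENCODE 44, the protein-coding genes SYNC and TXLNG overlap RBBP4 and RBBP7, respectively, on the other strand. Whether counting used strand is not given in the sources used here, so reads of these overlaps cannot be assigned with certainty.

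Of the accessory subunits, the Polycomb-like protein MTF2, which recognises methylated H3K36 and binds CpG islands, changed most. MTF2 (ENSG00000143033.18, chromosome 1, 93079235 to 93139079, plus strand) gave counts of 3598, 4419 and 5190 in the Control sh samples, against 1152, 972 and 1282 in the VprBP sh samples, and the groups were far apart. Normalized counts fell from 4632 ± 404 to 1093 ± 168 (SD, n = 3), a log2 fold change of -2.08 (SE 0.12, adjusted p = 2.81e-07 in edgeR). PHF19 (ENSG00000119403.15, chromosome 9, 120855651 to 120894896, minus strand), another Polycomb-like protein, gave counts of 740, 914 and 1050 in the Control sh samples, against 1352, 1349 and 1742 in the VprBP sh samples. Every VprBP sh sample was higher once normalized, at a log2 fold change of 0.58 (SE 0.10, adjusted p = 0.000419 in edgeR), which was not a called change. PHF1, the remaining Polycomb-like gene, had 690, 700 and 823 counts against 941, 1226 and 1597, a log2 fold change of 0.60 (SE 0.10, adjusted p = 0.000386 in edgeR) that was likewise under 2-fold.

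AEBP2 (ENSG00000139154.16, chromosome 12, 19404045 to 19720801, plus strand), a zinc finger protein that stabilises the complex, gave counts of 997, 1058 and 1206 in the Control sh samples, against 413, 340 and 466 in the VprBP sh samples. The Control sh samples were nearly equal after normalization, and all VprBP sh samples were below them. The means were 1150 ± 6.12 and 391 ± 61.2 (SD, n = 3), a log2 fold change of -1.56 (SE 0.12, adjusted p = 2.02e-06 in edgeR). JARID2 (ENSG00000008083.14, chromosome 6, 15246069 to 15522042, plus strand), a catalytically inactive relative of the JmjC demethylases that recruits PRC2, gave counts of 2176, 1858 and 2136 in the Control sh samples, against 1640, 1914 and 2566 in the VprBP sh samples. Its normalized counts were 2189 ± 289 and 1929 ± 85.5 (SD, n = 3) and the highest VprBP sh sample, at 1989, was slightly under the Control sh range. The log2 fold change of -0.18 (SE 0.10, adjusted p = 0.134 in edgeR) did not pass the test. With library size as the only scaling the log2 fold changes of JARID2 and RBBP7 turned positive, to 0.03 and 0.09. The median over all genes tested then moved from 0.08 to 0.29. With TMM factors and in DESeq2 all 10 PRC2 genes, JARID2 and RBBP7 included, had an adjusted p under 0.05. In the main edgeR fit 76.4% of all genes tested passed at any fold, and the share under these 2 settings was not computed. Whether these 2 genes passed the test thus depended on the scaling and method.

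**Figure D1:**
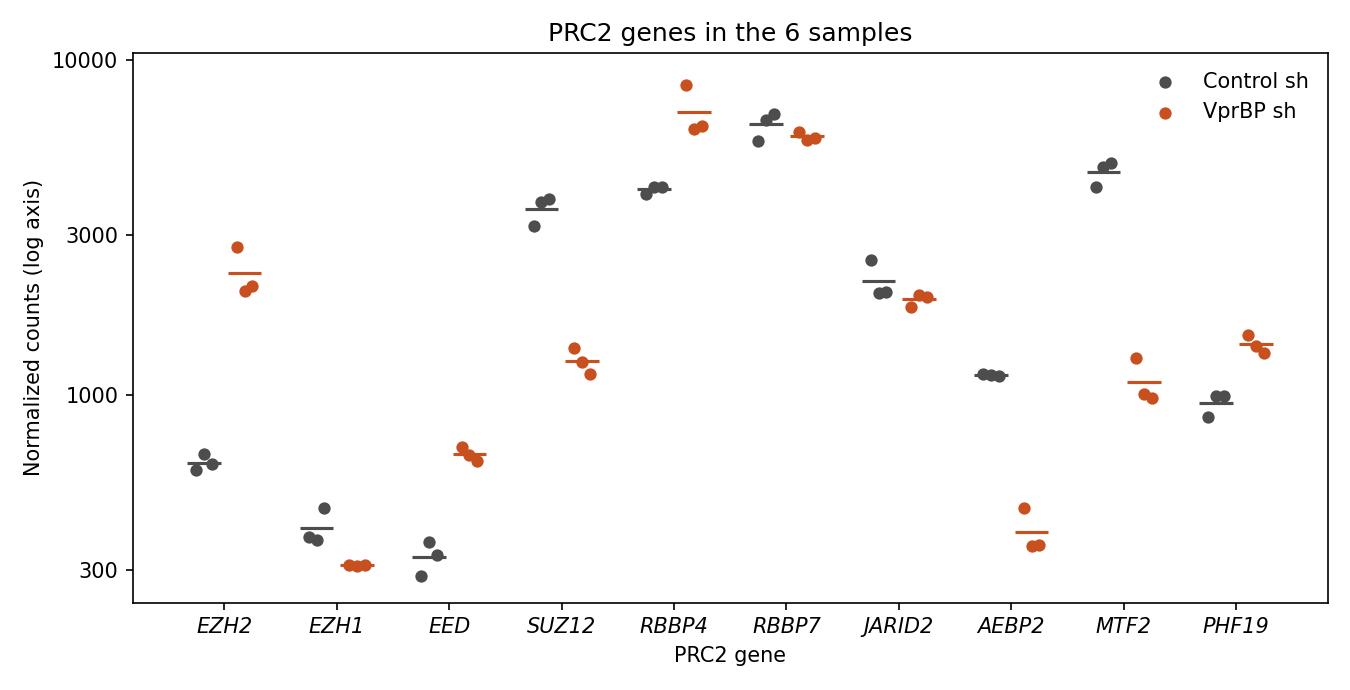
Normalized counts (y axis, log scale) of the 10 PRC2 genes (x axis) in 3 Control sh samples (grey) and 3 VprBP sh samples (orange), with short lines at the group means. The groups lie apart for 9 of the 10 genes, and the RBBP7 points overlap.

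At an adjusted p-value under 0.05 and any fold, 4 of the 10 genes were higher and 4 were lower in VprBP sh, against 76.4% of all genes tested in either direction. Normalized counts did not overlap between groups for 9 of the 10 genes, against 79.5% of all genes tested. The PRC2 genes therefore stood near the background on both counts. Permuting the 6 normalized counts of a single gene between groups (exact, two-sided) returned p = 0.1 for every PRC2 gene but RBBP7, where p = 0.4, and no lower p is possible with 3 against 3.

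**Figure D2:**
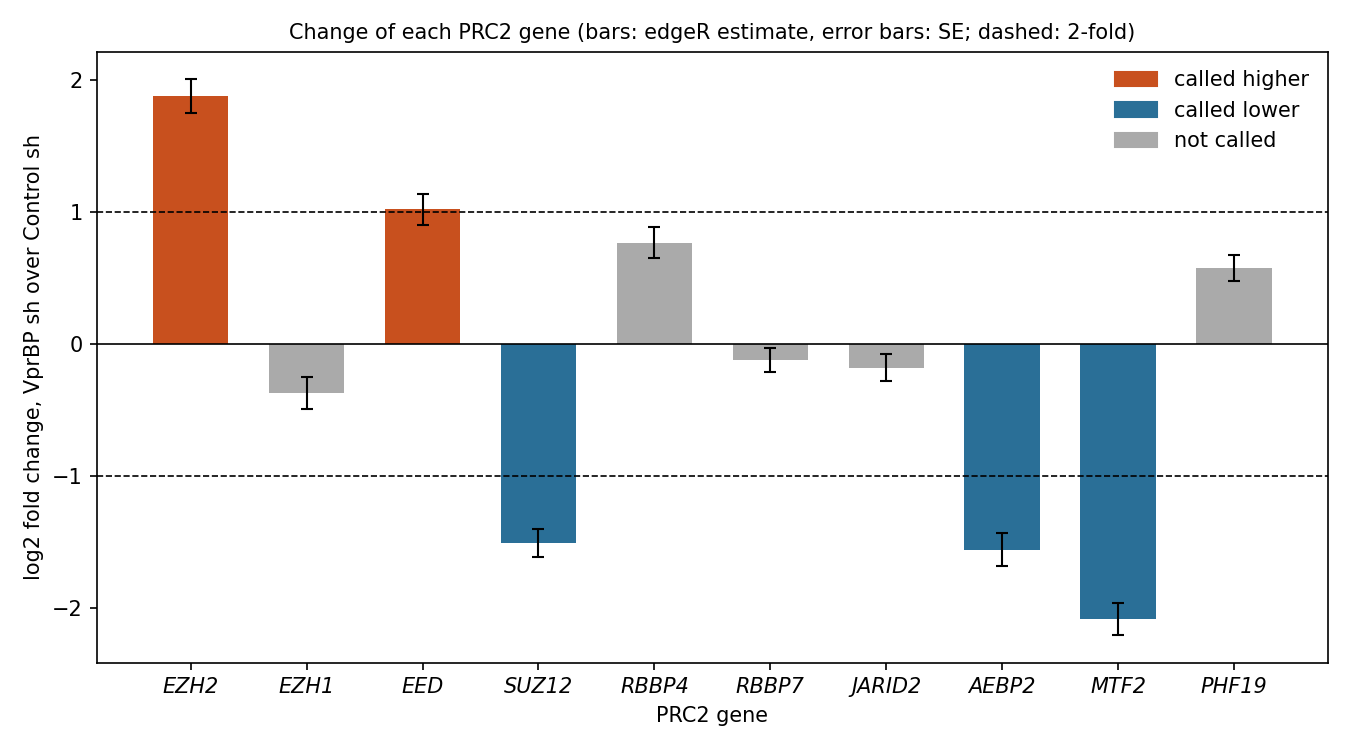
Log2 fold change of each PRC2 gene in VprBP sh over Control sh (y axis) from edgeR, with SE as error bars, coloured by call (orange higher, blue lower, grey not called) and dashed lines at 2-fold. EZH2 and EED rise past the upper line, SUZ12, AEBP2 and MTF2 fall past the lower line, and the EED bar ends just beyond its line.

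The balance between subunits was then compared within each sample, which removes the scaling between libraries. The EZH2 to EZH1 ratio was the ratio set out in the plan, and the other 5 ratios were chosen after the values were seen. Counts were divided by the length of the union of annotated exons in GENCODE 44, and the size of a ratio depends on that length, whereas its difference between groups does not. Per kilobase, the EZH2 to EZH1 ratio was 1.03, 1.17 and 0.879 in Control sh and 5.77, 4.29 and 4.40 in VprBP sh, with no overlap. The log2 ratio rose by 2.23, from 0.03 ± 0.21 to 2.26 ± 0.24 (SD, n = 3), a 4.69-fold increase (exact permutation p = 0.1). EZH2 made up 50.5 ± 3.58% of the EZH2 and EZH1 sum in Control sh and 82.6 ± 2.28% in VprBP sh. With the length of the canonical transcript, which for EZH2 is 2.654 kb against 10.774 kb of exon union, these shares were 73.2 ± 2.82% and 92.7 ± 1.06%.

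The ratio of EZH2 to the scaffold SUZ12 changed by more than any other pair compared, from 0.114, 0.108 and 0.0982 in Control sh to 1.22, 0.991 and 1.11 in VprBP sh, a 10.4-fold rise. EED to SUZ12 rose 5.80-fold, RBBP4 to RBBP7 rose 1.83-fold and JARID2 to AEBP2 rose 2.63-fold. MTF2 to PHF19 went the other way, from 5.43, 5.40 and 5.52 to 0.951, 0.804 and 0.822, which is 6.36-fold lower. Of the Polycomb-like genes, MTF2 had 68.4 ± 1.49% of the summed level per kilobase in Control sh and 25.4 ± 3.56% in VprBP sh, PHF19 12.6 ± 0.265% and 29.4 ± 1.34%, and PHF1 19.0 ± 1.72% and 45.2 ± 4.89%. By these values MTF2 was the most abundant Polycomb-like transcript in Control sh and PHF1 in VprBP sh, although PHF1 overlaps the protein-coding gene CUTA on the other strand and its level carries the same uncertainty as those of RBBP4 and RBBP7. Groups did not overlap for any of the 6 ratios, and each gave p = 0.1 in an exact permutation test, also 0.1 after Benjamini-Hochberg adjustment over the 6. For the 5 ratios chosen after the values were seen, the separation and p-values describe the chosen pairs and test nothing.

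**Figure D3:**
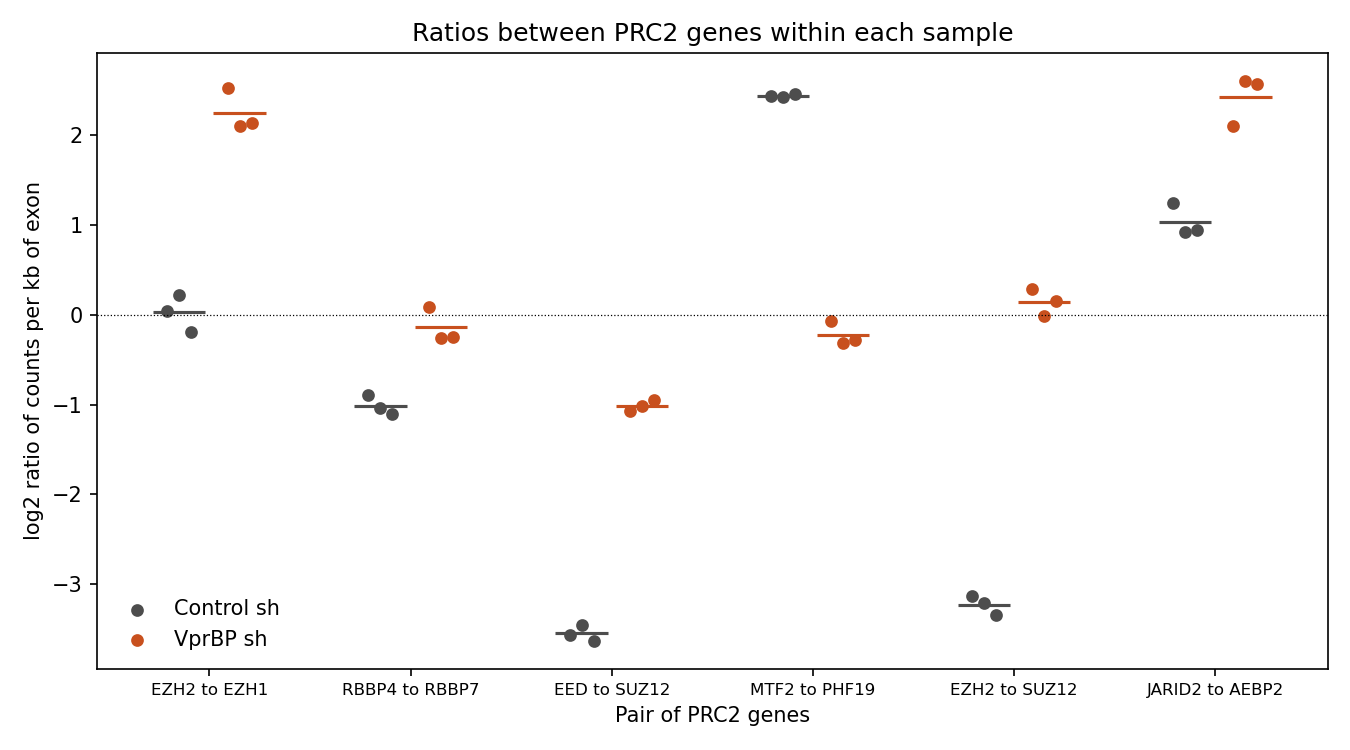
Log2 ratio of counts per kilobase of exon (y axis) for 6 pairs of PRC2 genes (x axis) in each of 3 Control sh samples (grey) and 3 VprBP sh samples (orange), with lines at group means. EZH2 to SUZ12 shows the widest gap and RBBP4 to RBBP7 the narrowest, and MTF2 to PHF19 is the pair that is lower in VprBP sh.

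By level per kilobase of exon union, the order in Control sh ran from RBBP7 (877 ± 84.8 normalized counts per kb) and MTF2 (784 ± 68.3), whose samples overlapped, through SUZ12, RBBP4, JARID2, AEBP2 and PHF19 to EZH2 (58.3 ± 3.26) and EZH1 (57.4 ± 7.19), whose samples also overlapped, and EED (46.9 ± 5.58). In VprBP sh RBBP7 (806 ± 24.3) and RBBP4 (738 ± 129) led and overlapped, and JARID2 followed at 309 ± 13.7. PHF19, EZH2, SUZ12 and MTF2 lay together between 166 and 257 normalized counts per kb, each overlapping its neighbour in the order. EED, AEBP2 and EZH1 came last, with EZH1 at 44.4 ± 0.210. With canonical transcript lengths EZH2 moved from rank 8 to rank 6 in Control sh and from rank 5 to rank 3 in VprBP sh, while RBBP7 stayed first and EZH1 was last in both groups. Several of these overlaps depended on the length used. By canonical length EZH2 in VprBP sh lay at 770 to 1045 per kb, apart from PHF19 at 322 to 364. In Control sh EZH2 (224 to 251) was then apart from EZH1 (79.5 to 99.0). In VprBP sh RBBP7 (2536 to 2682) was apart from RBBP4 (790 to 1065), which overlapped EZH2. For EED the counted gene starts at 86244753 and the GENCODE 44 gene at 86201212. Its exon union may therefore hold bases that were not counted, so its level per kb and rank are uncertain.

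Each PRC2 gene was next set beside the protein-coding genes within 1 Mb of it, since differences that run along a chromosome would be shared by neighbours. Over all genes tested, 46.4% were called, 24.5% higher and 22% lower. SUZ12 had 15 tested neighbours, of which 14 were called lower and 1 higher, and none was left uncalled. Their median log2 fold change was -1.81, and 13 of the 15 lay below the -1.51 of SUZ12. They include NF1, a negative regulator of RAS, at -2.08, and PSMD11, a proteasome subunit, at -2.04, both chosen after their values were seen. RHBDL3 was the neighbour that went up, from a mean of 0.725 normalized counts. The lower SUZ12 level was therefore within the range of the genes around it. Why neighbours moved together was not tested.

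EED likewise lay among neighbours that were mostly higher: 7 of 12 were called higher and 1 was called lower. Over all genes tested these shares were 24.5% and 22%, the background for each count of neighbours here. The median log2 fold change of the EED neighbours was 1.25, above that of EED. AEBP2 had 1 tested neighbour, PLEKHA5, with a log2 fold change of -4.43. The 15 neighbours of MTF2 were mixed, 4 being called higher and 5 lower, with a median of 0.10. MTF2 was within their range: TMED5, the gene next to it, had a log2 fold change of -2.02, close to that of MTF2, and GFI1 was lower, at -2.66, both chosen after their values were seen. EZH2 was past most of its neighbours, 6 of 14 being called higher and 1 lower, with a median of 0.63, and 2 lay above EZH2. JARID2 did not follow its 4 neighbours, of which 3 were called higher, with a median of 1.20. None of the 7 neighbours of RBBP7 was called. Of the remaining genes, EZH1 had 52 neighbours with a median of -0.58, RBBP4 35 with 0.44 and PHF19 14 with 0.49.

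**Figure D4:**
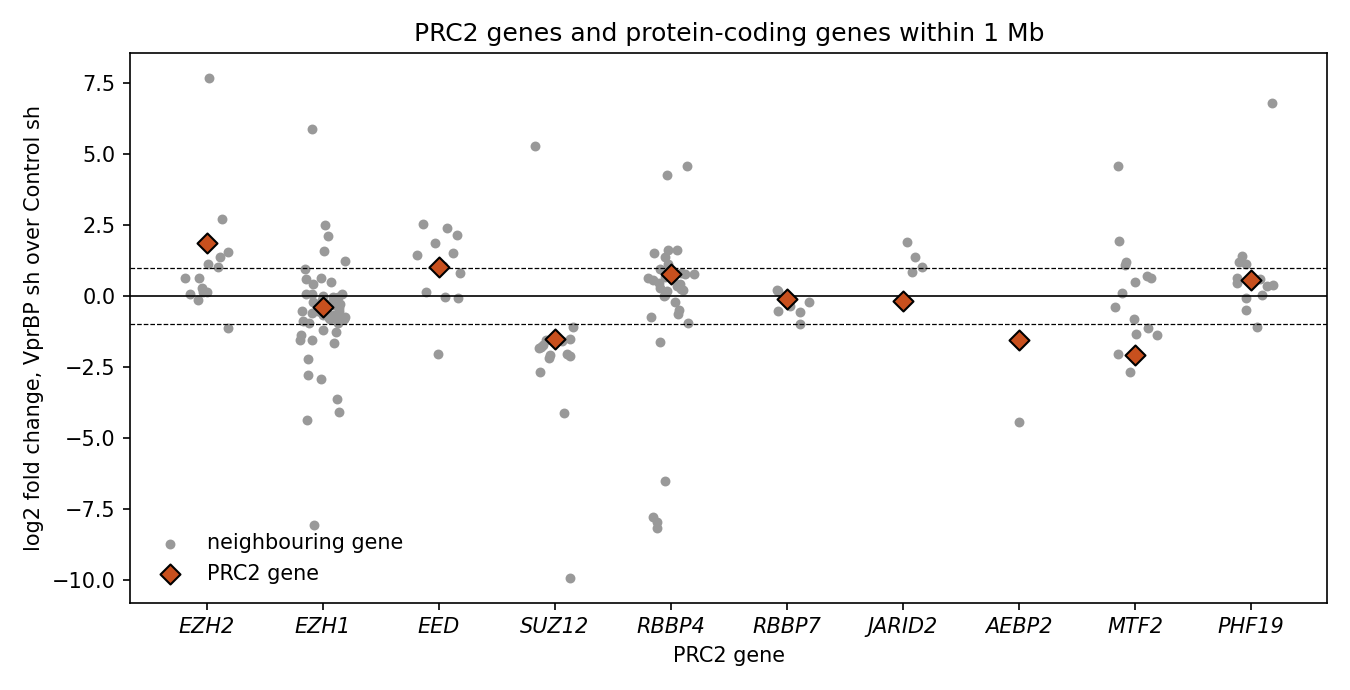
Log2 fold change in VprBP sh over Control sh (y axis) of each PRC2 gene (orange diamond) and of the tested protein-coding genes within 1 Mb of it (grey points, spread sideways for visibility), with dashed lines at 2-fold. The SUZ12 diamond sits within a column of 14 lowered neighbours, whereas the neighbours of MTF2 lie on both sides of 0, with 1 below the MTF2 diamond and 1 close to it.

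The genes whose pattern was most like that of EZH2 were sought among 12132 genes averaging at least 100 normalized counts, by Euclidean distance between centred log2 values over the 6 samples. The nearest were ST7L (distance 0.10), GPD1L (0.12), KIAA0586 (0.12), ZNF117 (0.13) and APC (0.13), with log2 fold changes of 1.84, 1.90, 1.94, 1.92 and 1.91. No other PRC2 gene was among these 5. Over 2 groups this distance mostly follows the log2 fold change, and the next highest PRC2 gene, EED, was at 1.02. Their absence thus follows from the fold changes given above and is no separate result.

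Genes linked to PRC2 were then counted from lists written for the purpose. PRC1, the complex that binds H3K27 methylation and ubiquitinates H2A, had 26 genes tested, of which 8 were called higher and 1 was called lower (34.6%, against 46.4% of all genes tested), and the median log2 fold change was 0.30. CBX2, a chromodomain subunit that reads the mark, gave counts of 37, 36 and 45 in the Control sh samples, against 1150, 1799 and 2353 in the VprBP sh samples, a log2 fold change of 5.31 (SE 0.19, adjusted p = 1.13e-08 in edgeR). AUTS2, of a variant PRC1, rose by 5.32 on the log2 scale, CBX8 by 1.90 and L3MBTL2 by 1.78. The catalytic genes of PRC1 differed in opposite directions, RNF2 with a log2 fold change of -1.71 and RING1 with 1.11, both called and both chosen after their values were seen. None of the 4 other PRC2-associated genes tested was called, with a median of 0.31. EZHIP was not analysed here.

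Enzymes that counter PRC2 or work beside it gave shares of called genes from 0% to 40%, against 46.4% of all genes tested. Neither H3K27 demethylase was called, KDM6A having a log2 fold change of 0.05 and KDM6B of -0.10, both with overlapping groups. Of 7 tested genes of the H2A deubiquitinase PR-DUB, 1 was called higher and 1 lower, ASXL1 with -1.21 and MBD5 with 1.03, the latter losing its call with TMM factors (0.94). Of 5 H3K36 methyltransferases, whose mark inhibits PRC2, NSD1 was called higher at 1.18 and NSD2 lower at -1.14, and NSD2 came to -0.93 when scaled by library size alone. Of 9 genes for DNA and H3K9 methylation, DNMT1, the maintenance DNA methyltransferase, rose from 4294, 4869 and 5631 counts to 20715, 22937 and 31095 counts, a log2 fold change of 2.18. DNMT3B was lower at -1.26 and EHMT2 higher at 1.00, the last at the limit of a call and under it with TMM factors. Of 18 genes of other complexes that hold RBBP4 or RBBP7, 3 were called higher and none lower, namely SAP30 at 2.11, MTA3 at 1.38 and HAT1 at 1.27, with a median of 0.09.

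The E2F and RB family, which controls EZH2 and EED transcription in dividing cells, had 13 genes tested, of which 2 were called higher and 5 lower (53.8%, against 46.4% of all genes tested). RB1, the retinoblastoma gene, gave counts of 1821, 2402 and 2677 in the Control sh samples, against 29, 15 and 23 in the VprBP sh samples, a log2 fold change of -6.82 (SE 0.21, adjusted p = 5.44e-09 in edgeR). E2F2 rose by 2.37 on the log2 scale, while E2F7 fell by 1.60 and RBL1 fell by 1.44. Proliferation genes gave no common direction: of 25 tested, 4 were called higher and 2 lower (24%, against 46.4% of all genes tested), with a median of -0.11. Those called included RRM2 at 2.24, CCNE1 at 1.97 and CCNE2 at 1.67, and MCM2 at -2.03.

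Genes known from other work as targets of EZH2 or PRC2 gave 25 genes tested of 30 listed, 7 called higher and 12 lower (76%, against 46.4% of all genes tested). Lists of cell type markers, with 2 to 6 genes tested each, gave 75% for keratinocyte, fibroblast and endothelial markers. Urothelial markers gave 83.3%, leukocyte markers 100% and melanocyte-lineage markers 33.3%. A share above the background was thus not particular to targets. The median log2 fold change of the targets was -0.66 and the median absolute value 3.20. The 7 targets with a group at 0 have bounds past both medians, so setting them to these bounds could not alter either. CDKN2A, which encodes the p16 and ARF tumour suppressors, had 0 counts in all Control sh samples and 2059, 3479 and 4443 in VprBP sh. CDKN2B, its neighbour on chromosome 9, had 0 counts in Control sh and 611, 777 and 1017 in VprBP sh. Against a floor of 3 counts per library these are at least 973-fold and 237-fold higher. HOXD10, a homeobox gene, had 614, 609 and 742 counts in Control sh and 0 in every VprBP sh sample, at least 237-fold lower, and SLIT2, a guidance ligand, 454, 529 and 560 counts and 0, at least 186-fold lower. Such all-or-none differences were not limited to targets: over the whole table, 158 genes stayed at 3 counts or fewer throughout Control sh while averaging 100 or more in VprBP sh, and 408 genes showed the reverse. Targets therefore moved both ways while EZH2 rose and SUZ12 fell.

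**Figure D5:**
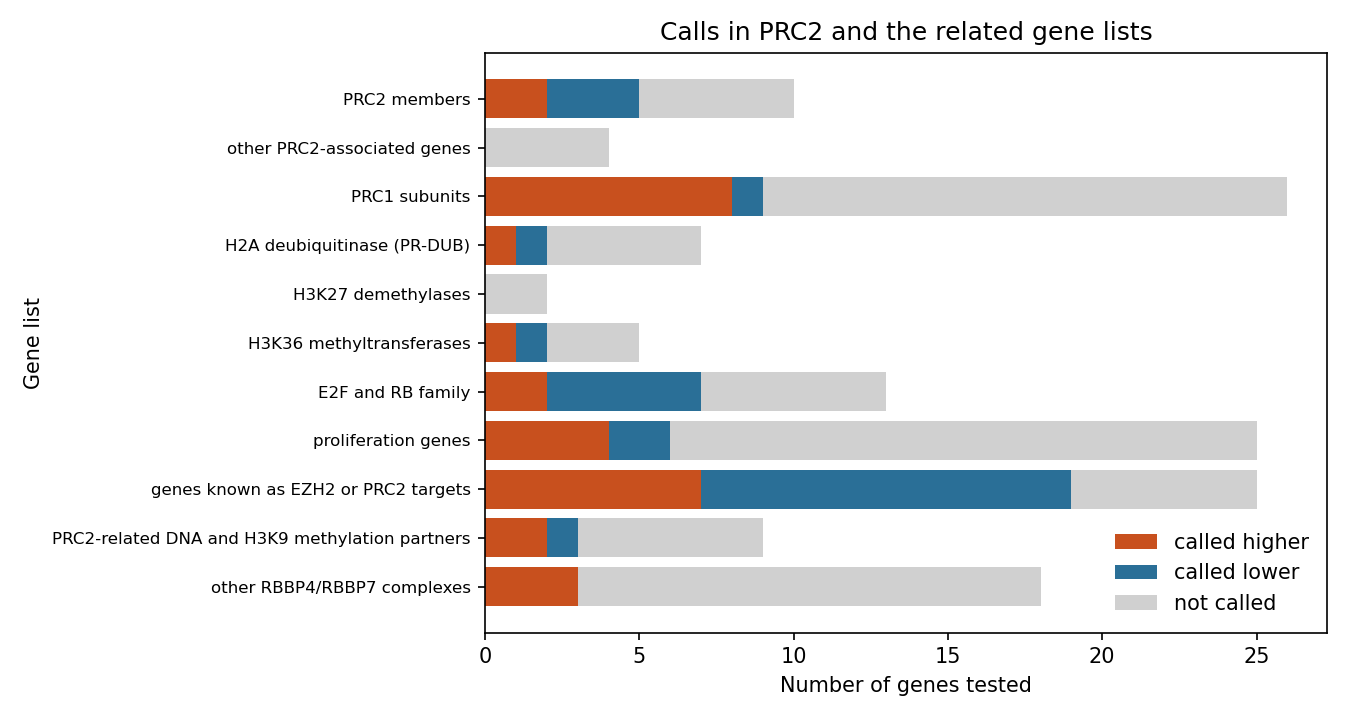
Number of genes tested (x axis) in the PRC2 list and 10 related lists (y axis), divided into called higher (orange), called lower (blue) and not called (grey) in VprBP sh. Among the lists drawn, known targets have the most calls, 19 of 25, and PRC1 calls are mostly higher, 8 of 9. Lists of cell type markers are not drawn.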

How the data were processed

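Single-end RNA-seq reads of 6 samples were aligned to hg38 with STAR and quantified per gene in Partek Flow by the authors, who deposited estimated counts, neither normalized nor pooled. The labels name a SMARTER kit and the paper a stranded KAPA kit. Of the values, 59.4% are whole numbers. The design had assumed whole counts, so the values were rounded before testing. The PRC2 genes and all lists were chosen with earlier results of these data known.

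All genes were tested with edgeR 4.0.16 in R 4.3.3 (quasi-likelihood test, upper quartile factors at quantile 0.75, minimum count of 10, no replicate block, Benjamini-Hochberg adjustment over 16756 genes), in place of the authors' Gene Specific Algorithm, and were called at an adjusted p under 0.05 and a fold over 2. SE is the log2 fold change over the square root of F. The test was tried on simulated data. In lists, up to 4 called genes with the largest change were named, provided they averaged 100 normalized counts or more. The floor of 3 counts, 2.30 to 3.48 normalized counts, covers counting error only. Ratios used counts plus 0.5. Alternatives were TMM factors, library size alone, DESeq2 1.42.0, limma-voom 3.58.1, other filters, a test against 2-fold, a replicate block, other lengths and leaving out each sample. Summing replicates 2 and 3 and using canonical lengths were added after seeing the data. Lengths and overlaps came from GENCODE 44. RT-qPCR and ChIP were not used here.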

Additional observations from a re-analysis of the deposited data

How the results depend on the processing

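Of the 10 PRC2 genes, 4 or 5 were called under every alternative, EED being the gene that lost its call, and EZH2, SUZ12, AEBP2 and MTF2 were called each time. At an adjusted p under 0.05 and any fold, 8 PRC2 genes passed in the main edgeR fit, against 76.4% of all genes tested. With TMM factors and in DESeq2 10 passed, and with library size alone 7. The shares of all genes under these settings were not computed, so these counts have no background beside them. The count over all genes was 7778, and came to 4690 when at least 10 counts were required in every sample, which leaves fewer genes to test. Leaving out 1 sample gave 7949 to 8142 genes, 4 to 5 PRC2 genes and EZH2 to EZH1 log2 ratio differences of 2.09 to 2.33. With library size alone, the log2 fold change of RBBP7 (0.090, adjusted p = 0.400 in edgeR) and the log2 fold change of JARID2 (0.031, adjusted p = 0.781) reversed, and the cause was not tested beyond the shift of the median of all genes to 0.29. With a replicate block, 7686 genes and 5 PRC2 genes were called, and the EZH2 to EZH1 difference was 2.23 (exact paired permutation p = 0.25, the smallest for 3 pairs). Samples of the same number did not deviate together across genes (correlations -0.06, 0.02 and -0.05). Whether samples of the same number share a batch was not tested. Replicates 2 and 3 of a group differed less from each other (chi-square per degree of freedom 2.32 and 2.21) than from replicate 1 (13.8 to 23.1). Summed into 1 sample, they left 5 PRC2 genes called. With 3 samples a group, exact tests cannot go below 0.1.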
